A study of Homo sapiens with 6 samples.

Results

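Collagen chain genes were taken as every gene of the deposited expression table whose symbol is COL, a type number, A and a chain number and nothing else. The rule found 43 genes of 20494, from 27 collagen types, and 19 of them had a mean of at least 1 RPKM (a read density, corrected for gene length and library size) over the 6 libraries, the level from which changes are described. The libraries are RNA-seq of the human ovarian teratocarcinoma line PA-1, 1 for each of 6 groups. Cells labelled RIPK1, RIPK2, RIPK3 or RIPK4, named for the receptor-interacting protein kinase whose plasmid they took, and cells labelled Vector, which took empty pCDNA3.1, had 8 µg of plasmid for 48 h. Cells labelled Wnt3a had 200 ng of this Wnt ligand for 16 h, and no plasmid amount is recorded for them, so that a difference of Wnt3a from Vector holds ligand, time and plasmid together, which cannot be told apart. All groups are the same line in the same medium, and the labels give no share of transfected cells. Since each group is 1 library, differences have no replicate check, neither SDs nor p-values can be had, and all values describe these libraries.

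Collagens are secreted assemblies of alpha chains wound around each other through repeats of glycine and 2 further residues, many of them proline. Fibrillar types (such as I, II and V) build the fibrils of connective tissue, type IV forms the network of basement membranes, type VI makes beaded filaments, and type VII anchors epithelium to stroma. Most types need chains from more than 1 gene, so the balance between partner chains is part of what the transcripts can show. In mouse embryonal carcinoma cells, basement membrane chains are a known product of the first steps of differentiation.

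The line's label was compared with embryonal markers first. LIN28A stood between 213 and 392 RPKM, SOX2 between 48.1 and 149 RPKM and POU5F1 between 12.999 and 17.2 RPKM over the 6 libraries, while NANOG stayed at 0.234 RPKM or below and TDGF1 was listed at 0. Of 10 such markers, 8 had a mean of at least 1 RPKM. Fibroblast genes were split: VIM and THY1 were abundant, whereas DCN and TWIST2 were listed at 0 in all libraries and LUM, FAP and PRRX1 stayed at 0.0485 RPKM or below. RIPK3 and RIPK4 were at least 17.9 RPKM in the libraries that bear their names and under 0.04 RPKM elsewhere, RIPK2 stood at 27.4 against 11.8 RPKM in Vector, and RIPK1 at 16.6 against 12.8 RPKM. As recovered from the RPKM values, library totals were 18.5 M (Wnt3a), 19.5 M (RIPK1), 19.3 M (RIPK2), 19.1 M (RIPK3), 18.3 M (RIPK4) and 17.2 M (Vector) reads. Whole fractions of a total fit as well, and the largest that fit was taken.

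Type XVIII and type IV chains led the collagen transcripts of PA-1 cells. COL18A1, the chain of a basement membrane proteoglycan whose end fragment is endostatin, stood at 124 RPKM with Wnt3a, 86.3 with RIPK1, 168 with RIPK2, 168 with RIPK3, 142 with RIPK4 and 97.6 in Vector. COL4A1, a core chain of the basement membrane network, stood at 103, 91.4, 127, 143 and 110.3 RPKM with Wnt3a, RIPK1, RIPK2, RIPK3 and RIPK4, against 90.4 in Vector. COL5A2, a fibrillar chain that starts and limits the fibrils of type I, and COL4A2, the partner of COL4A1, were next with means of 92.3 and 91.7 RPKM. COL5A2 ran from 70.85 to 134 RPKM with the ligand and kinases, against 69.8 in Vector, and COL4A2 from 70.02 to 115 RPKM, against 67.3 in Vector. These 4 genes held 52.4% to 56.6% of the summed collagen RPKM in each library. Fibrillar chains together made up 34.9% to 38.2% of that sum and type IV chains 25.5% to 31.8%. The share of COL7A1, the anchoring fibril chain, varied more, at 8.32% with RIPK2 and 4.59% with RIPK1, against 5.95% in Vector. The sum itself came to 769 RPKM with Wnt3a, 563 with RIPK1, 951 with RIPK2, 989 with RIPK3 and 784 with RIPK4, against 579.5 in Vector. It was 1.64-fold and 1.71-fold of Vector in RIPK2 and RIPK3, 1.33-fold in Wnt3a, 1.35-fold in RIPK4 and 0.971-fold in RIPK1. In bulk RNA, here and in all later values, fewer cells of a kind and less RNA per cell cannot be told apart.

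**Figure D1:**
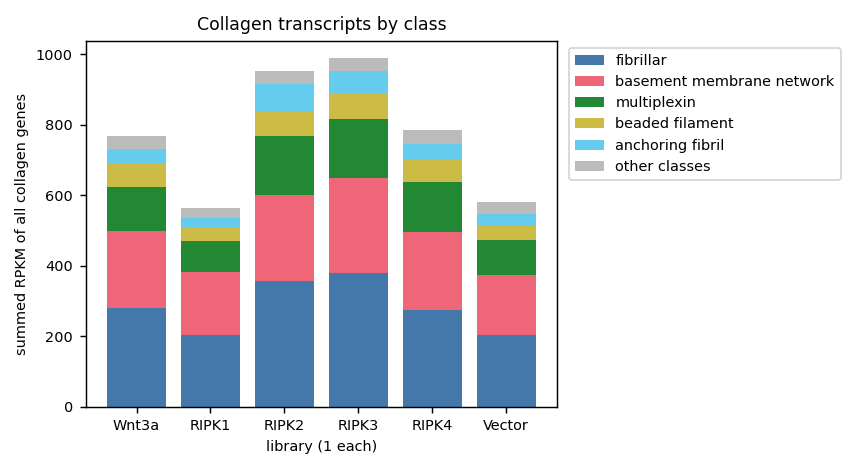
Stacked bars give the summed RPKM of the 43 collagen genes in each library by class of collagen (1 library a group, no error). RIPK2 and RIPK3 are highest at 951 and 989 RPKM, and RIPK1 and Vector lowest at 563 and 579.5 RPKM, with fibrillar and type IV chains the largest parts in all 6.

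Much of the family was silent or nearly so. The other 24 genes had means from 0.00196 to 0.958 RPKM, and 18 of them lay below 0.1 RPKM with at most 18 reads in any library. Among these 18 were COL3A1, the type III chain of soft connective tissue and fibroblasts (at most 0.108 RPKM), COL4A3 and COL4A4, the type IV chains of the mature kidney filter (at most 0.0472 and 0.0314 RPKM), and COL10A1, the chain of hypertrophic cartilage (at most 0.0657 RPKM). At 2 kb of transcript, the 3 reads that a count of 0 still allows at 95% confidence equal 0.0769 to 0.0870 RPKM, depending on the library. COL25A1 and COL8A1 lay just above the limit of 1 RPKM, with means of 1.38 and 1.47, and COL16A1 and COL6A3 just below it, with means of 0.958 and 0.786. Of the 11 fibrillar genes 7 passed it, of the 6 type IV genes 4, of the 5 beaded filament genes 2, and of the 10 fibril-associated genes 2 (COL9A2 and COL9A3).

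**Figure D2:**
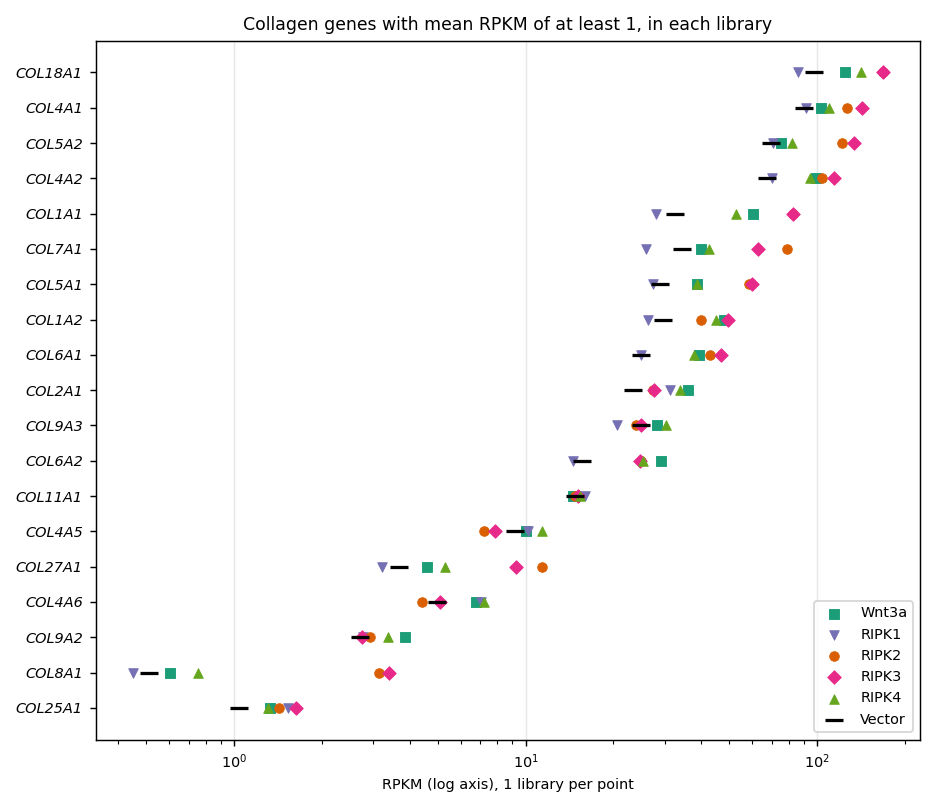
Each symbol is the RPKM (log axis) of 1 collagen gene in 1 library, for the 19 genes with a mean of at least 1 RPKM, ordered by mean. COL8A1, COL27A1, COL1A1 and COL7A1 are spread most, with RIPK2 and RIPK3 at the right, and COL11A1 least (14.5 to 16.0 RPKM).

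The largest differences of the family stood in the RIPK2 and RIPK3 libraries and comprised a small set of genes. COL8A1, COL27A1 and COL1A1 were at least 2-fold above Vector in both, COL7A1 in RIPK2 and COL5A1 in RIPK3. By difference of log2(RPKM + 1), 4 of 19 collagen genes were thus at least 2-fold higher in each of the 2 libraries, where 1.59% (RIPK2) and 1.47% (RIPK3) of all 11880 genes at that level were. COL8A1 passed the mean of 1 RPKM only through its RIPK2 and RIPK3 values and is below 1 RPKM in the other 4 libraries; without it the counts were 3 of 18 in each. None was 2-fold lower (0.699% and 0.581% of all genes). Both comparisons use the same Vector library, so they are not independent of each other. The family median was 0.62 with RIPK2 and 0.72 with RIPK3, beside -0.01 and 0.02 over all genes. Without COL8A1 it was 0.56 with RIPK2 and 0.69 with RIPK3.

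COL8A1 encodes a short chain of the hexagonal network found under endothelium and in vessel walls. It stood at 3.14 RPKM (207 reads) with RIPK2 and 3.39 RPKM (221 reads) with RIPK3, against 0.509 RPKM (30 reads) in Vector. Wnt3a, RIPK1 and RIPK4 held 0.6004, 0.450 and 0.751 RPKM. The gene was therefore low in 4 libraries and 4-fold or more above all of them in the other 2. The ratio of RPKM to Vector was 6.17 for RIPK2 (95% interval 4.19 to 9.38) and 6.66 for RIPK3 (4.53 to 10.1). All such intervals are exact binomial ones from the reads of both libraries, cover counting error only, and compare libraries, not conditions. COL8A2, its partner chain, stayed at 0.194 RPKM or below.

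COL27A1 is a fibrillar chain of cartilage and developing tissues. It stood at 11.4 RPKM with RIPK2 and 9.27 RPKM with RIPK3, against 3.68 RPKM in Vector, and at 4.60, 3.21 and 5.29 RPKM with Wnt3a, RIPK1 and RIPK4. RIPK2 was 3.10-fold (2.78 to 3.47) and RIPK3 2.52-fold (2.26 to 2.83) of Vector. Unlike COL8A1, it was lower in RIPK3 than in RIPK2 (ratio 0.813, 0.753 to 0.879).

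COL1A1 encodes the major chain of type I, the chief collagen of bone, skin and tendon. It stood at 82.6 RPKM with RIPK2 and 83.0 RPKM with RIPK3, against 32.6 RPKM in Vector, ratios of 2.53 (2.43 to 2.63) and 2.54 (2.45 to 2.65). Its levels with Wnt3a, RIPK1 and RIPK4 were 60.5, 28.1 and 52.8 RPKM, so all but RIPK1 lay above Vector. COL7A1, the anchoring fibril chain, stood at 79.1 RPKM with RIPK2 and 62.8 RPKM with RIPK3, against 34.5 RPKM in Vector, ratios of 2.29 (2.22 to 2.37) and 1.82 (1.76 to 1.88). With Wnt3a, RIPK1 and RIPK4 it stood at 39.9, 25.8 and 42.6 RPKM. It too was lower in RIPK3 than in RIPK2, with a ratio of 0.794 (0.774 to 0.814).

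COL5A1, the major chain of type V, sat at the limit of the 2-fold rule. Its ratio to Vector was 2.03 (1.96 to 2.10) with RIPK2 and 2.07 (1.999 to 2.15) with RIPK3, at 58.5 and 59.8 RPKM against 28.8. Wnt3a, RIPK1 and RIPK4 held 38.7, 27.4 and 38.6 RPKM. On the log2(RPKM + 1) scale RIPK3 passed and RIPK2 did not, and with median-ratio scaling of the libraries 5 genes passed with RIPK2 and 3 with RIPK3. The difference between the 2 libraries was within counting error (ratio 1.02, 0.993 to 1.05). COL5A2 was 1.75-fold (1.70 to 1.79) and 1.91-fold (1.86 to 1.96) of Vector. COL18A1 (1.72-fold and 1.73-fold), COL6A1 (1.74-fold and 1.89-fold), COL6A2 (1.59-fold and 1.58-fold) and COL4A2 (1.55-fold and 1.70-fold) lay at least 1.5-fold above Vector in both libraries.

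Several collagens lay closer to Vector. COL11A1, a fibrillar chain of cartilage that joins type II fibrils, stood at 14.8 RPKM with RIPK2 and 15.1 RPKM with RIPK3, against 14.8 RPKM in Vector, and its ratios had intervals of 0.944 to 1.07 and 0.964 to 1.09. COL9A2 and COL9A3, chains of the type IX collagen that coats type II fibrils, had ratios of 1.08 and 0.957 with RIPK2 and of 1.01 and 0.995 with RIPK3, with intervals that all include 1. COL9A2 ranged from 2.71 to 3.85 RPKM and COL9A3 from 20.6 to 30.4 RPKM over the 6 libraries. COL2A1, the chain of type II itself, was 1.17-fold (1.11 to 1.24) and 1.18-fold (1.11 to 1.25) of Vector. COL2A1, COL9A2, COL9A3 and COL11A1 were thus at most 1.18-fold of Vector in both libraries. COL25A1, a transmembrane collagen of neurons and muscle, stood at 1.42 and 1.63 RPKM, against 1.04 RPKM in Vector (1.37-fold, 1.06 to 1.76, and 1.56-fold, 1.22 to 2.001).

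Among the genes under a mean of 1 RPKM, the 3 with the highest single value were COL6A3, COL16A1 and COL17A1. COL6A3, the long chain of type VI, stood at 1.42 RPKM (376 reads) with RIPK2 and 1.57 RPKM (411 reads) with RIPK3, against 0.360 RPKM (85 reads) in Vector, ratios of 3.96 (3.12 to 5.07) and 4.37 (3.45 to 5.59). COL17A1, a hemidesmosome component of epidermis, stood at 0.983 and 0.858 RPKM, against 0.517 RPKM in Vector (1.90-fold, 1.37 to 2.67, and 1.66-fold, 1.18 to 2.35). Both were thus higher in RIPK2 and RIPK3 than in the other 4 libraries. COL16A1, a fibril-associated chain, stood at 1.13, 0.745, 1.15, 0.953 and 1.04 RPKM with Wnt3a, RIPK1, RIPK2, RIPK3 and RIPK4, against 0.734 RPKM in Vector. One gene, singled out after its values were seen, ran the other way: COL21A1, also a fibril-associated chain, had 12 reads with RIPK2 and 21 with RIPK3, against 55 in Vector (ratios 0.195, 0.0951 to 0.369, and 0.345, 0.198 to 0.580).

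**Figure D3:**
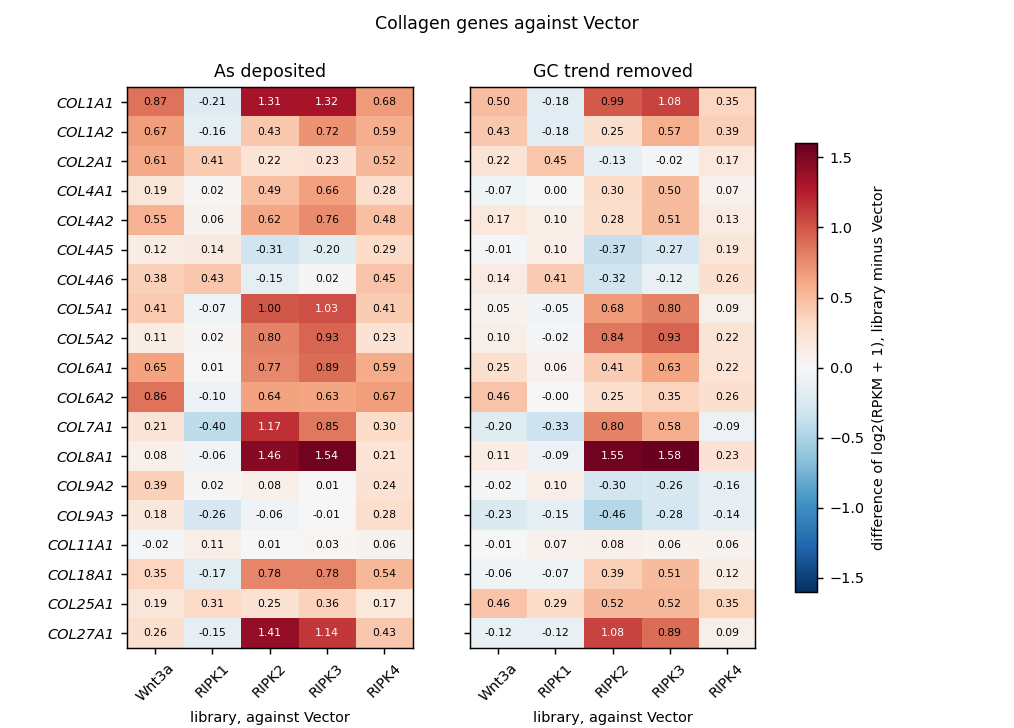
Each field gives the difference of log2(RPKM + 1), library minus Vector, for 19 collagen genes, as deposited (left) and after a smooth trend with transcript GC content was subtracted (right). Every value of 1 or more lies in RIPK2 or RIPK3, and COL8A1 stays at 1.55 and 1.58 there after the subtraction, while most values in Wnt3a and RIPK4 move toward 0. COL5A1 with RIPK2 rounds to 1 and lies just below it.

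Collagen transcripts are rich in G and C, and fold changes over all genes followed GC content in 4 of the 5 comparisons. The 19 genes had a median transcript GC content of 61.1%, beside 48.7% over all 11779 genes with a value, and 15 of them lay above that median. Across all genes the difference from Vector correlated with GC content at a Spearman rho of 0.699 for Wnt3a, 0.669 for RIPK4, 0.666 for RIPK2, 0.545 for RIPK3 and -0.0887 for RIPK1, a description over genes of the same libraries. Over the 19 collagen genes alone rho was 0.477 for Wnt3a, 0.507 for RIPK4, 0.0439 for RIPK2, -0.104 for RIPK3 and -0.514 for RIPK1. With that trend subtracted, the family median became 0.30 with RIPK2 and 0.51 with RIPK3, and 2 genes in each stayed at least 2-fold higher, beside 1.05% and 1.07% of all genes. With Wnt3a, RIPK1 and RIPK4 0 genes were 2-fold higher after subtraction, beside 0.34%, 0.229% and 0.297% of all genes. The genes that stayed were COL8A1 (1.55) and COL27A1 (1.08) with RIPK2, and COL8A1 (1.58) and COL1A1 (1.08) with RIPK3. COL8A1 passed the mean of 1 RPKM only through those 2 libraries and is included in both family medians. Without it, COL27A1 alone stayed with RIPK2 and COL1A1 alone with RIPK3. COL1A1 with RIPK2 came to 0.99, COL7A1 with RIPK2 to 0.80 and COL5A1 with RIPK3 to 0.80. COL8A1, COL5A2 (0.84 and 0.93) and COL25A1 (0.52 in both), whose GC contents are below the median of all genes, were not reduced by it. COL9A3, at 67.4% GC, came to -0.46 with RIPK2 and -0.28 with RIPK3.

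Wnt3a and RIPK4 gave smaller differences than RIPK2 and RIPK3. No collagen gene was 2-fold apart from Vector in either direction, where 0.673% and 1.43% of all genes were higher and lower with Wnt3a, and 0.396% and 0.387% with RIPK4. Above Vector stood 18 of the 19 genes with Wnt3a and 19 of 19 with RIPK4, beside 53.3% and 55.6% of all genes, and 16 with RIPK2 and 17 with RIPK3, beside 49.1% and 52.2%. For Wnt3a and RIPK4 the family medians were 0.35 and 0.41, beside 0.04 and 0.05. With the GC trend subtracted, 11 and 16 genes stood above Vector, beside 50.7% and 50.4% of all genes, and the medians became 0.10 and 0.17. The counts were then 14 with RIPK2 and 14 with RIPK3, beside 50.8% and 50.7%. All counts above Vector with RIPK2 and RIPK3 include COL8A1, which passed the mean of 1 RPKM only through these libraries.

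Type VI and type I chains led in both libraries. COL6A2, a short chain of type VI, stood at 29.3 RPKM with Wnt3a and 25.4 RPKM with RIPK4, against 15.6 RPKM in Vector, ratios of 1.87 (1.77 to 1.98) and 1.62 (1.53 to 1.72). COL1A1 was 1.86-fold (1.78 to 1.94) and 1.62-fold (1.55 to 1.69) of Vector, and COL1A2, the minor chain of type I, 1.62-fold (1.54 to 1.69) and 1.52-fold (1.45 to 1.59). COL6A1 was 1.59-fold (1.502 to 1.69) and 1.53-fold (1.44 to 1.62). COL2A1 stood at 36.1 RPKM with Wnt3a and 33.9 RPKM with RIPK4, against 23.3 RPKM in Vector, its 2 highest levels in the series. At 1.5-fold, 5 of 19 collagen genes were higher with Wnt3a (7.95% of all genes) and 4 with RIPK4 (4.92% of all genes), namely COL1A1, COL1A2, COL6A1 and COL6A2 in both and COL2A1 with Wnt3a. The same limit gave 10 genes with RIPK2 (7.56% of all genes), 12 with RIPK3 (6.02%) and 0 with RIPK1 (0.901%). The counts for RIPK2 and RIPK3 include COL8A1, which passed the mean of 1 RPKM only through those libraries. After the GC trend was subtracted, COL1A1 stood at 0.50 with Wnt3a and 0.35 with RIPK4, and COL6A2 at 0.46 and 0.26. COL2A1 then stood at 0.22 with Wnt3a and 0.17 with RIPK4, below its 0.45 with RIPK1.

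Set directly against Wnt3a, RIPK4 was lower for COL1A1 (ratio 0.873, 0.842 to 0.904) and COL6A2 (0.868, 0.826 to 0.911). It was higher for COL18A1 (1.14, 1.11 to 1.17), COL4A5 (1.14, 1.06 to 1.22) and COL27A1 (1.15, 1.03 to 1.29), and equal within counting error for COL5A1 (0.997, 0.962 to 1.03). The length of exposure also differed between these groups. COL8A1 had ratios to Vector whose intervals include 1 with both Wnt3a (1.18, 0.712 to 1.97) and RIPK4 (1.47, 0.913 to 2.42). RIPK2 held 5.23-fold (3.69 to 7.60) and RIPK3 5.64-fold (3.99 to 8.19) the COL8A1 of Wnt3a.

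With RIPK1 the family stayed close to Vector. The RIPK1 transcript itself rose less there (16.6 against 12.8 RPKM in Vector) than those of RIPK2, RIPK3 and RIPK4 in their libraries. No collagen gene was 2-fold apart (0.295% of all genes higher, 0.547% lower), 10 stood above Vector and 9 below (52.2% of all genes above), and the median was 0.0054, beside 0.0106 over all genes. COL4A6, a type IV chain of smooth muscle and epithelial basement membranes, was 1.42-fold higher (1.29 to 1.55), at 7.05 against 4.98 RPKM in Vector. COL2A1 was 1.34-fold higher (1.27 to 1.42), at 31.3 against 23.3 RPKM in Vector, and COL25A1 1.47-fold (1.15 to 1.89). COL7A1 was at 0.749 of Vector (0.720 to 0.779), COL9A3 at 0.827 (0.758 to 0.901), COL1A1 at 0.860 (0.819 to 0.903) and COL18A1 at 0.885 (0.862 to 0.909). Of the 19 genes, 9 had their lowest value in RIPK1 and 7 in Vector. The same share over all genes was not counted, so these numbers cannot be read as a trait of collagens.

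Partner chains did not always keep their proportions. Their ratios are given as deposited, without subtraction of the GC trend, here and in the next 2 paragraphs. The usual type I trimer holds more COL1A1 than COL1A2 chains. COL1A1 stood at 2.06 times the RPKM of COL1A2 with RIPK2 (1.98 to 2.13) and at 1.68 times with RIPK3 (1.62 to 1.74), against 1.10 times in Vector (1.05 to 1.16). The ratio was 1.26 with Wnt3a, 1.17 with RIPK4 and 1.06 with RIPK1. COL1A2 itself was 1.35-fold of Vector with RIPK2 (1.29 to 1.42), below its Wnt3a and RIPK4 levels, and 1.67-fold with RIPK3 (1.59 to 1.75), so RIPK3 exceeded RIPK2 by 1.23-fold (1.18 to 1.28). RIPK2 and RIPK3 thus had nearly the same COL1A1 level and differed in COL1A2. With the GC trend subtracted, COL1A1 and COL1A2 came to 0.99 and 0.25 with RIPK2 and to 1.08 and 0.57 with RIPK3.

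Type IV chains showed 2 patterns. COL4A1 and COL4A2, which assemble together, stood at 127 and 104 RPKM with RIPK2 and 143 and 115 RPKM with RIPK3, against 90.4 and 67.3 RPKM in Vector. COL4A5 and COL4A6, the pair of another type IV network, stood at 7.19 and 4.40 RPKM with RIPK2 and 7.86 and 5.07 RPKM with RIPK3, against 9.17 and 4.98 RPKM in Vector. COL4A5 was at 0.784 of Vector with RIPK2 (0.723 to 0.850) and 0.857 with RIPK3 (0.791 to 0.928), and its highest values were in RIPK4 (11.4 RPKM) and RIPK1 (10.2 RPKM). RIPK2 and RIPK3 were therefore the highest libraries for COL4A1 and COL4A2 and the lowest for COL4A5. Within a pair the ratio of COL4A1 to COL4A2 was 1.04 with Wnt3a (1.01 to 1.07) and 1.17 to 1.31 with the kinases, against 1.34 in Vector (1.30 to 1.38). With the GC trend subtracted, COL4A1 and COL4A2 came to -0.07 and 0.17 with Wnt3a, from 0.19 and 0.55. That of COL4A5 to COL4A6 lay between 1.45 and 1.63 in the other libraries, against 1.84 in Vector (1.68 to 2.02).

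Type V and type VI were also unequal. COL5A2 stood at 1.95 (Wnt3a) to 2.58 (RIPK1) times the RPKM of COL5A1, with 2.42 in Vector. The GC contents of these 2 chains differ, at 47.9% (COL5A2) and 60.3% (COL5A1). Their differences from Vector were 0.80 and 0.996 with RIPK2, and 0.84 and 0.68 with the GC trend subtracted. With Wnt3a they were 0.113 and 0.414, and 0.095 and 0.052 after subtraction. The order of the 2 chains was thus reversed by it in both libraries. COL6A1 exceeded COL6A2 by 1.35-fold (Wnt3a) to 1.90-fold (RIPK3), with 1.59-fold in Vector. COL6A1 exceeded COL6A3, the chain that completes the type VI trimer, by 30.3-fold with RIPK2 (27.2 to 33.7) and 29.8-fold with RIPK3 (26.95 to 33.1), against 69.0-fold in Vector (55.5 to 86.7) and 86.4-fold with RIPK1 (68.8 to 110).

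**Figure D4:**
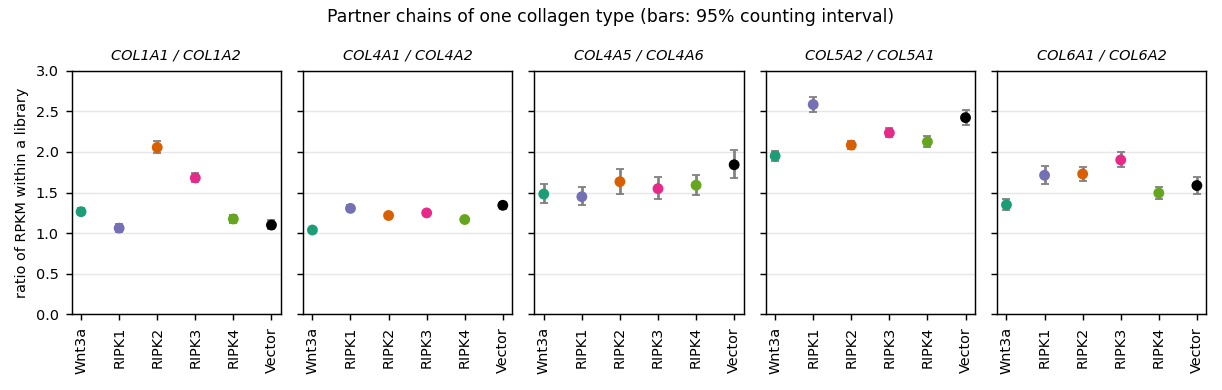
Points give the ratio of RPKM of 2 partner chains within each library, as deposited, with exact binomial 95% intervals for counting error. COL1A1 over COL1A2 stands at 2.06 in RIPK2 and 1.68 in RIPK3 and at 1.06 to 1.26 elsewhere, while the other 4 pairs vary less.

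The 2 type IV pairs are encoded head to head, so that each pair shares the stretch between its starts. In RefSeq's windows (GRCh38.p14, 250 bases before to 50 after each start), the starts of COL4A1 (minus strand) and COL4A2 (plus strand) on chromosome 13 lie 127 bases apart and their windows share 226 bases. The nearest starts of COL4A6 and COL4A5 on chromosome X lie 380 bases apart. Windows were found for 12 of the 19 genes, and not for COL1A1, COL1A2, COL2A1, COL5A2, COL6A1, COL8A1 and COL9A3. The sequences below are the window of COL4A2, which shares those 226 bases with the window of COL4A1, whose transcripts were both highest in RIPK3, and those of 3 genes about 2-fold or more above Vector in RIPK2 or RIPK3. They are written 5′ to 3′ on the strand of the gene, with these letters in capitals on either strand: the Sp1 box GGGCGG, the CCAAT box CCAAT and the TATA box TATAAA. COL4A2 lies at chr13:110307034-110307333 (plus), COL27A1 at chr9:114155287-114155586 (plus), COL7A1 at chr3:48595280-48595579 (minus) and COL5A1, with the first of its 2 starts, at chr9:134641553-134641852 (plus).
COL4A2: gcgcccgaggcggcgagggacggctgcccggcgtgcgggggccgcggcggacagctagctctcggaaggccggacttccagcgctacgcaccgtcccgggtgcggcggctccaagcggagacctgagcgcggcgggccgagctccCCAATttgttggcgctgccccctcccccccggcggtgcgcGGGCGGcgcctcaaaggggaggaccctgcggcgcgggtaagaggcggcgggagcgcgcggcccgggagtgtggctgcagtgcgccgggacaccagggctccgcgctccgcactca
COL27A1: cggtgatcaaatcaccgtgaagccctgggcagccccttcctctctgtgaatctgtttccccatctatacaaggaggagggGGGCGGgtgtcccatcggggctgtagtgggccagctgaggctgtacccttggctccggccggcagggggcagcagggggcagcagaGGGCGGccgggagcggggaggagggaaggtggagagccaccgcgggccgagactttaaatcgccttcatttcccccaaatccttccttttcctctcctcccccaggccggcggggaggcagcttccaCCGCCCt
COL7A1: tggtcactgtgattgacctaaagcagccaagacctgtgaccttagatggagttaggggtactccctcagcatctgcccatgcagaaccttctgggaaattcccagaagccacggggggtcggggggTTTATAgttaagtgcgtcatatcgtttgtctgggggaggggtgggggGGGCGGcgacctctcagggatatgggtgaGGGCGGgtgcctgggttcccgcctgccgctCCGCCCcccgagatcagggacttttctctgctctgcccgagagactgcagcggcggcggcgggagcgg
COL5A1: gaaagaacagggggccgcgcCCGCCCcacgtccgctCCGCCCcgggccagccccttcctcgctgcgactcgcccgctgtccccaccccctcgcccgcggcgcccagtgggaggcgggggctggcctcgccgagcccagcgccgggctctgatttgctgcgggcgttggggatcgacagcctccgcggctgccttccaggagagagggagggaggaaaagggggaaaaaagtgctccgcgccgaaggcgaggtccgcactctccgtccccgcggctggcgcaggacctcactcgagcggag

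The window of COL4A2 holds 1 CCAAT and 1 Sp1 box and no TATA box, those of COL27A1 and COL5A1 hold 3 and 2 Sp1 boxes, and that of COL7A1 holds 3 Sp1 boxes and 1 TATA box. An Sp1 box was found in at least 1 window of 10 of the 12 genes, beside 44.95% of 35116 RefSeq windows. Here and below the count is of genes, which have 15 windows together, and the share is of single windows, so these measures differ. A CCAAT box was found for 6 genes, beside 34.6% of windows, and a TATA box for 3, beside 11.5%. The AP-1 letters TGANTCA and the SMAD letters GTCTAGAC were found for 0 of the 12 genes, beside 7.71% and 0.202% of windows. The windows of these genes had a median GC content of 68.3%, beside 58.7% over all windows. Such matches describe letters in these windows and are no sites.

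Genes that make, process and bind collagen were described from lists of named genes, whose counts are read beside the shares of all genes that were 2-fold higher and lower: 0.673% and 1.43% with Wnt3a, 0.295% and 0.547% with RIPK1, 1.59% and 0.699% with RIPK2, 1.47% and 0.581% with RIPK3, and 0.396% and 0.387% with RIPK4. Counts and medians of these lists are of differences of log2(RPKM + 1), without subtraction of the GC trend. On that scale a gene low in RPKM can exceed 2-fold in RPKM and not be counted. Of 21 genes for modification and folding, 20 had a mean of at least 1 RPKM and 1 was 2-fold higher in any library: P4HA2, a prolyl hydroxylase subunit, at 7.50 RPKM with Wnt3a against 2.83 RPKM in Vector (2.65-fold, 2.17 to 3.25). With the GC trend subtracted, P4HA2 came to 1.08 with Wnt3a. The list medians were 0.35 with Wnt3a, 0.03 with RIPK1, 0.18 with RIPK2, 0.22 with RIPK3 and 0.21 with RIPK4. GLT25D1, a galactosyltransferase of collagen hydroxylysine, stood at 25.9 RPKM in Vector. With Wnt3a, RIPK2, RIPK3 and RIPK4 it stood at 43.4, 43.8, 42.3 and 40.5 RPKM. With the GC trend subtracted, these differences came to 0.40, 0.47, 0.49 and 0.36. GLT25D2, its relative, stood at 3.88 RPKM with RIPK2, against 1.94 RPKM in Vector. CTAGE5, an export factor for large cargo, stood at 1.99 RPKM with Wnt3a, against 4.38 RPKM in Vector. With the GC trend subtracted, CTAGE5 with Wnt3a came to -0.45, from -0.85.

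Of 14 genes for propeptide cleavage and cross-linking, 9 were at that level and 1 was 2-fold higher, with 0 lower. This was LOX, the lysyl oxidase that cross-links collagen, at 9.26 RPKM with RIPK2 and 8.68 RPKM with RIPK3, against 0.849 RPKM in Vector. It was at most 0.849 RPKM in the other 4 libraries and so passed the mean of 1 RPKM only through RIPK2 and RIPK3. With the GC trend subtracted, LOX came to 2.79 with RIPK2 and 2.58 with RIPK3. BMP1, which cuts off the C-propeptide of fibrillar collagens, stood at 6.62 RPKM with RIPK2 and 7.22 RPKM with RIPK3, against 3.40 RPKM in Vector (1.94-fold, 1.70 to 2.22, and 2.12-fold, 1.86 to 2.42). By log2(RPKM + 1) BMP1 differed by 0.79 and 0.90, so it was not counted. The list medians were 0.40 with Wnt3a, -0.05 with RIPK1, 0.13 with RIPK2, 0.16 with RIPK3 and 0.26 with RIPK4. ADAMTS2 and TLL1 stayed below 0.1 RPKM in all libraries.

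Among 10 collagen receptors, 5 were at that level and 0 were 2-fold apart in any library. MRC2, an uptake receptor for collagen, differed most, at 40.3 RPKM with Wnt3a and 40.8 RPKM with RIPK4, against 23.98 RPKM in Vector. ITGB1, the beta chain of the collagen-binding integrins, stood at 147 RPKM with RIPK3, against 106 RPKM in Vector. With the GC trend subtracted, MRC2 came to 0.33 with Wnt3a and 0.37 with RIPK4, and ITGB1 to 0.65 with RIPK3. Receptor medians were 0.16, 0.11, 0.21, 0.35 and 0.19 with Wnt3a, RIPK1, RIPK2, RIPK3 and RIPK4. Of 11 proteases and inhibitors, 7 were at that level and 1 was 2-fold higher: MMP14, a membrane collagenase, at 71.5 RPKM with RIPK2 and 78.8 RPKM with RIPK3, against 32.2 RPKM in Vector (2.22-fold, 2.11 to 2.34, and 2.45-fold, 2.33 to 2.58). With the GC trend subtracted, MMP14 came to 0.85 with RIPK2, below the 2-fold limit, and to 1.06 with RIPK3. MMP2, a gelatinase that MMP14 activates, stood at 98.8 RPKM with RIPK2 and 98.0 RPKM with RIPK3, against 58.8 RPKM in Vector, and the inhibitor TIMP1 at 93.2 and 92.6 RPKM, against 58.8 RPKM in Vector. The medians of this list were 0.24, -0.13, 0.65, 0.26 and 0.12 in the same order of libraries.

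The 18 matrix partners moved in both directions, with 14 at that level. TNC, which encodes tenascin C, stood at 37.1 RPKM with RIPK2 and 37.8 RPKM with RIPK3, against 12.6 RPKM in Vector. POSTN, which encodes periostin, was lower, at 24.4 RPKM with RIPK2, 27.5 RPKM with RIPK3 and 31.3 RPKM with Wnt3a, against 66.7 RPKM in Vector. NID2, a linker of type IV collagen and laminin, stood at 3.88 RPKM with RIPK2 and 4.18 RPKM with RIPK3, against 8.89 RPKM in Vector. BGN, a small proteoglycan that binds type I fibrils, stood at 5.72 RPKM with RIPK3, against 2.34 RPKM in Vector. With RIPK2, RIPK4, Wnt3a and RIPK1 it stood at 4.97, 4.95, 4.26 and 2.97 RPKM. HSPG2, which encodes perlecan and was named after its values were seen, stood at 8.24 RPKM with Wnt3a, against 3.61 RPKM in Vector. With RIPK4, RIPK2, RIPK3 and RIPK1 it stood at 8.02, 6.71, 5.36 and 3.78 RPKM. By log2(RPKM + 1), BGN (0.83) and HSPG2 (0.97) with RIPK4 lay below the 2-fold limit and were not counted. In this list 1 gene was 2-fold higher and 2 lower with RIPK2, 2 higher and 1 lower with RIPK3, 1 higher and 1 lower with Wnt3a, and 0 with RIPK1 and RIPK4. With the GC trend subtracted, HSPG2 (0.60) and POSTN (-0.69) with Wnt3a and BGN (0.77) with RIPK3 no longer reached 2-fold. With RIPK2 and RIPK3, TNC came to 1.33 and 1.38, POSTN to -1.07 and -1.04, and NID2 to -1.11 and -1.02. The medians were 0.43 with Wnt3a, 0.09 with RIPK1, 0.22 with RIPK2, 0.23 with RIPK3 and 0.38 with RIPK4.

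Markers of cells that make collagen were read beside these results. The summed RPKM of 12 fibroblast and mesenchymal genes was 2380 with Wnt3a, 2079 with RIPK1, 2658 with RIPK2, 2671 with RIPK3 and 2243 with RIPK4, against 2152 in Vector, mostly VIM. Of the 7 at a mean of 1 RPKM, 0 were 2-fold apart in any library. Of 5 endothelial genes 4 were at that level and 0 were 2-fold apart by difference of log2(RPKM + 1). CDH5 came closest, at 0.90 with RIPK2 and 0.96 with RIPK3. In RPKM it was more than 2-fold of Vector in both, at 10.95 and 11.5 against 5.40 RPKM. Of 6 chondrocyte genes 2 were at that level, SOX9 and MATN3, and ACAN and HAPLN1 stayed below 0.1 RPKM. The summed endothelial RPKM was 50.8 with Wnt3a, 55.3 with RIPK1, 60.6 with RIPK2, 66.8 with RIPK3 and 48.0 with RIPK4, against 52.6 in Vector, and the summed chondrocyte RPKM 69.2, 48.2, 60.98, 61.1 and 63.1, against 56.7. The summed RPKM of the 10 embryonal markers was 491, 681, 388, 428 and 571, against 623 in Vector. LIN28A held 339 of the 623 RPKM in Vector. SOX2 was 2-fold lower with Wnt3a (48.1 RPKM), RIPK2 (63.2 RPKM) and RIPK3 (68.5 RPKM), against 149 RPKM in Vector, and PRDM14 with Wnt3a. Of the 8 at a mean of 1 RPKM, 6 lay below Vector with Wnt3a, 4 with RIPK1, 7 with RIPK2, 6 with RIPK3 and 5 with RIPK4. Over all genes, 53.3%, 52.2%, 49.1%, 52.2% and 55.6% stood above Vector in the same order of libraries. SALL4 lay above Vector with the ligand and every kinase (0.09 to 0.54), and POU5F1 was higher with RIPK3 (0.37) and RIPK4 (0.23). With the GC trend subtracted, SOX2 came to -1.73 with Wnt3a, -1.27 with RIPK2 and -1.17 with RIPK3. LIN28B with RIPK2 went from -0.23 to 0.13. The part of any such difference in the collagen levels was not tested. The labels do not say whether reads were counted by strand. COL9A3 shares 45 exonic bases with TCFL5 on the other strand (7.804 to 10.5 RPKM), so its values are uncertain to that extent.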

How the data were processed

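PA-1 RNA was sequenced in 6 libraries, 1 a group, grouped by the transfection field of the labels, with table columns matched to samples by title. The authors deposited RPKM for 20494 genes, 1 column a library, per the file headers. GSNAP, DESeq and the build hg19 appear, with no version or role, per the submitters' processing notes. The sources used here give no annotation, counting rule or strand.

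Members, lists, thresholds and alternatives were chosen with earlier results of these data known. All members at a mean of at least 1 RPKM are named, with the 3 highest of the rest, and up to 4 genes of each related list plus genes that bear on a result. Differences are of log2(RPKM + 1), a scale that understates differences of low genes, and 2-fold counts as changed. The transfected kinase was left out of its own background.

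Read numbers were recovered by trying gene lengths of 15 to 30000 bases until all values of a gene were whole reads within the rounding of 5 digits, with 1 total a library. This succeeded for 99.9% of 11881 genes at the level analysed and all 19 collagen genes. For 6 of these the length is settled up to whole multiples and the smallest was used, and for 13 the fit nearest the GENCODE 29 length was used. Without molecular identifiers, reads may repeat a molecule. GC content is that of the longest GENCODE 29 transcript of each gene, by gene identifier, and its trend was fitted by lowess (span 0.3, statsmodels 0.14.6). Intervals used scipy 1.17.1. The steps were tested on simulated data. Alternatives were a pseudocount of 0.1, median-ratio scaling, no filter, a mean of at least 5 RPKM, the GC trend and 1.5-fold.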

Additional observations from a re-analysis of the deposited data

How the results depend on the processing

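The 2 counts of collagen genes above 0, those higher with RIPK2 and RIPK3, stayed within 1.5 times their value in 8 of 12 recalculations. Leaving out COL8A1, an alternative chosen after seeing the data, gave 3 in each. The other counts are 0 as deposited and say nothing of stability. COL5A1 crossed the limit with scaling or pseudocount. With the GC trend removed, the genes higher came to 2 with RIPK2 and 2 with RIPK3, against 4 in each as deposited, all including COL8A1. Further causes were not tested. At 1.5-fold in place of 2-fold, 10 genes were higher with RIPK2, 12 with RIPK3, 4 with RIPK4 and 5 with Wnt3a. No collagen gene was counted as 2-fold lower under any of the 6 alternatives. For low genes this count was fixed by the scale. COL21A1, at 0.685 RPKM in Vector, cannot reach 2-fold lower on log2(RPKM + 1), even without a filter. Its lower ratios of RPKM with RIPK2 and RIPK3 are given above. Of 49 recalculated medians and single genes, 18 moved. The family median with RIPK1, 0.01, changed sign to -0.03 with median-ratio scaling or a mean of at least 5 RPKM. With the GC trend removed it came to -0.0025. Those of the other 4 libraries kept their sign under all alternatives run, and without a filter, over 43 genes that are mostly near 0 RPKM, came to 0.10 with Wnt3a, 0.05 with RIPK2, 0.03 with RIPK3 and 0.06 with RIPK4. No paired analysis was possible because each group has 1 library. Depth limits COL8A1 most, with 30 reads in Vector, and the 18 genes below 0.1 RPKM, with at most 18 reads in any library.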
